A study of Rattus norvegicus with 12 samples.

Results

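The cytochrome P450 enzymes were taken from the rat kidney transcriptome as the protein-coding genes whose symbol opens with Cyp and a digit. Cyp24a1, Cyp27b1 and the Cyp1a and Cyp1b genes were left out, which removed 4 of 59 genes and left 55. They stood among 20455 genes with at least 1 read in any library and belonged to 32 subfamilies. RNA had been sequenced from kidney tissue of rats in 3 groups of 4 libraries. Sham samples were the controls, CPB samples came from a rat model of cardiopulmonary bypass, in which a pump and an oxygenator stand in for heart and lungs, and CPB+Nitrite samples had the bypass together with nitrite, a salt from which tissues can form nitric oxide. The labels name treatment and tissue only, so strain, age, sex, dose, duration and sampling time are not known here, and nothing in them says whether the replicates were separate animals. All p-values therefore measure only the spread between these samples, which may be technical.

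Cytochrome P450 enzymes are haem proteins that insert 1 atom of oxygen into their substrates, with electrons that reach the enzymes of the endoplasmic reticulum through P450 oxidoreductase (Por) and those of mitochondria through ferredoxin. In the kidney the best known members act on arachidonic acid. The Cyp4a and Cyp4f enzymes hydroxylate its end (omega) carbon and make a vasoconstrictor hydroxyeicosatetraenoic acid, while Cyp2c and Cyp2j enzymes make epoxyeicosatrienoic acids, which relax vessels. Others clear drugs or make and break down sterols, vitamin D, steroid hormones and retinoic acid, and much of the kidney's P450 protein sits in the proximal tubule.

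Libraries held 16.8 to 25.8 M reads, and the P450 genes took 0.859 to 1.02% of them in sham libraries, 0.737 to 0.845% after CPB alone and 0.547 to 0.866% after CPB+Nitrite. Of the 55 genes 34 had enough reads to be tested, and the other 21 held 710 reads in all, from 1 to 198 each. Levels are counts-per-million (CPM) on scaled library sizes, given as mean ± SD with n = 4 per group, and are not corrected for gene length, so they compare samples and not genes. Changes are log2 values with standard errors (SE) from edgeR's quasi-likelihood test, called at a Benjamini-Hochberg adjusted p under 0.05 over all 14664 genes tested. Some libraries stood apart in markers of other tissue. The summed level of 7 adipocyte markers was 433 CPM in sham 1 against 66.2 CPM in sham 3, and that of 6 urothelial markers was 166 CPM in sham 1 and 113 CPM in CPB+Nitrite 1 against 0.918 CPM in sham 4. CPB+Nitrite 2 had 2183 CPM of 7 endothelial markers, where the CPB libraries had 87.2 to 160 CPM, and 564 CPM of 4 marker genes for distal tubule and Henle's loop, where the others had at least 4709 CPM.

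After bypass, 3 P450 genes rose and 9 fell against sham. The risers were Cyp2s1 (7.49-fold), Cyp27a1 (3.83-fold) and Cyp4b1 (2.46-fold). The fallers were Cyp2r1 (3.29-fold), Cyp39a1 (3.09-fold), Cyp2d5 (2.82-fold), Cyp2d4 (2.21-fold), Cyp2d2 (2.09-fold), Cyp4a1 (1.67-fold), Cyp2c24 (1.61-fold), Cyp4f6 (1.6-fold) and Cyp4f1 (1.43-fold). In these bulk samples fewer cells of a type and less RNA per cell cannot be told apart. Over all genes tested 21.7% were called higher and 21.5% lower, against 3 and 9 of the 34 P450 genes, so the share that fell was near the background and the share that rose was below it. The median log2 change was -0.33 over the 34 P450 genes and -0.05 over all genes tested. Groups did not overlap for 3 P450 genes that were higher and 7 that were lower in CPB, where 23.5% and 24.8% of all genes tested were apart in these directions. Without sham 1 and CPB+Nitrite 2, a choice made after seeing the data, the counts were 5 higher and 6 lower, where 22% and 22.5% of all genes were called. The 5 include Cyp3a9, which had 0 reads in sham and is not among the 34 genes tested in the main fit. With libraries scaled by total counts alone, 15 P450 genes were called lower, where 29.1% of all genes were called lower and 15.6% higher. Under that scaling the median of all genes tested moved to -0.24, and higher genes made up 34.8% of all calls in place of 50.3%.

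Calls for 7 of the 12 genes passed the threshold under each of 22 alternative settings, namely those for Cyp2s1, Cyp27a1, Cyp4b1, Cyp2r1, Cyp39a1, Cyp2d4 and Cyp4f6. Promoters are shown for the pair of genes among them with the largest rises and the pair with the largest falls, as the 250 bases before the RefSeq transcription start, read 5′ to 3′ along the gene (RefSeq sequence, build GRCr8). Capitals mark the nuclear receptor half-site AGGTCA or its reverse complement and, in Cyp2r1, the reverse complement of GCGTG, the core of the xenobiotic response element.
Cyp2s1, GRCr8 chr1:90453074-90453323, minus strand: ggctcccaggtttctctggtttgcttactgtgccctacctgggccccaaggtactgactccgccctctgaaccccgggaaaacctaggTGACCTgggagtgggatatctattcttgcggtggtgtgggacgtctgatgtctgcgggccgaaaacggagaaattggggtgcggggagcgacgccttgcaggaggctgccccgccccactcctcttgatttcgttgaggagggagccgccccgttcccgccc
Cyp27a1, GRCr8 chr9:83713282-83713531, plus strand: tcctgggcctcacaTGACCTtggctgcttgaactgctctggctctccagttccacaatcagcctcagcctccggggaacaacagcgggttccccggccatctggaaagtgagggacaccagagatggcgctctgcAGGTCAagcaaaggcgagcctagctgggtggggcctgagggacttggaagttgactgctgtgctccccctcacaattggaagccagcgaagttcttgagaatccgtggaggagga
Cyp39a1, GRCr8 chr9:24804061-24804310, minus strand: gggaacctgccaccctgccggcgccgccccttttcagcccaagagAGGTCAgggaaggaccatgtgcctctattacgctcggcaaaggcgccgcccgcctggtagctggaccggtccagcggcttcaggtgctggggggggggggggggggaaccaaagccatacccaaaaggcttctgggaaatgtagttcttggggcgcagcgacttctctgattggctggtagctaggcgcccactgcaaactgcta
Cyp2r1, GRCr8 chr1:178232175-178232424, minus strand: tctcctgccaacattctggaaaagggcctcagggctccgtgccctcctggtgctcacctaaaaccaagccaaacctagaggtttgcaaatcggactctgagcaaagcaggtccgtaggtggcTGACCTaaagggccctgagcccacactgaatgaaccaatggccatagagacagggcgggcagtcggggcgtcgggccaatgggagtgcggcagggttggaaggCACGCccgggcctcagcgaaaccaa

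A match is a run of letters, not a shown binding site. The half-site lay in all 4 windows, 162 to 157 bases before the start in Cyp2s1, 236 to 231 and 115 to 110 bases before it in Cyp27a1, 205 to 200 bases before it in Cyp39a1 and 128 to 123 bases before it in Cyp2r1. It thus stood before genes that rose and genes that fell. A RefSeq window was found for 47 of the 55 P450 genes, 31 of them tested. On either strand AGGTCA was in 10 of these 31 (32.3%) and in 13.7% of 27457 promoters of the same length, and it was in 2 of the 3 risers and 2 of the 8 fallers with a window. GCGTG was in 12 of 31 (38.7%) against 27.2% of all promoters, in 0 of the risers and 3 of the fallers. GTTAAT, a half-site of the tubule factors of the Hnf1 family, was in 2 of 31 (6.45%, against 6.46% of all), and both genes, Cyp2d2 and Cyp4f1, fell. The AP-1 site TGACTCA was in 1 of 31 (3.23%, against 3.98%), the TATA box TATAAA in 7 of 31 (22.6%, against 13.1%), and TTATGTAA, a site of the PAR bZIP factors Dbp, Tef and Hlf, in 0 of 31 (0.816% of all). None of the 6 motifs overlapped another in the windows shown.

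**Figure D1:**
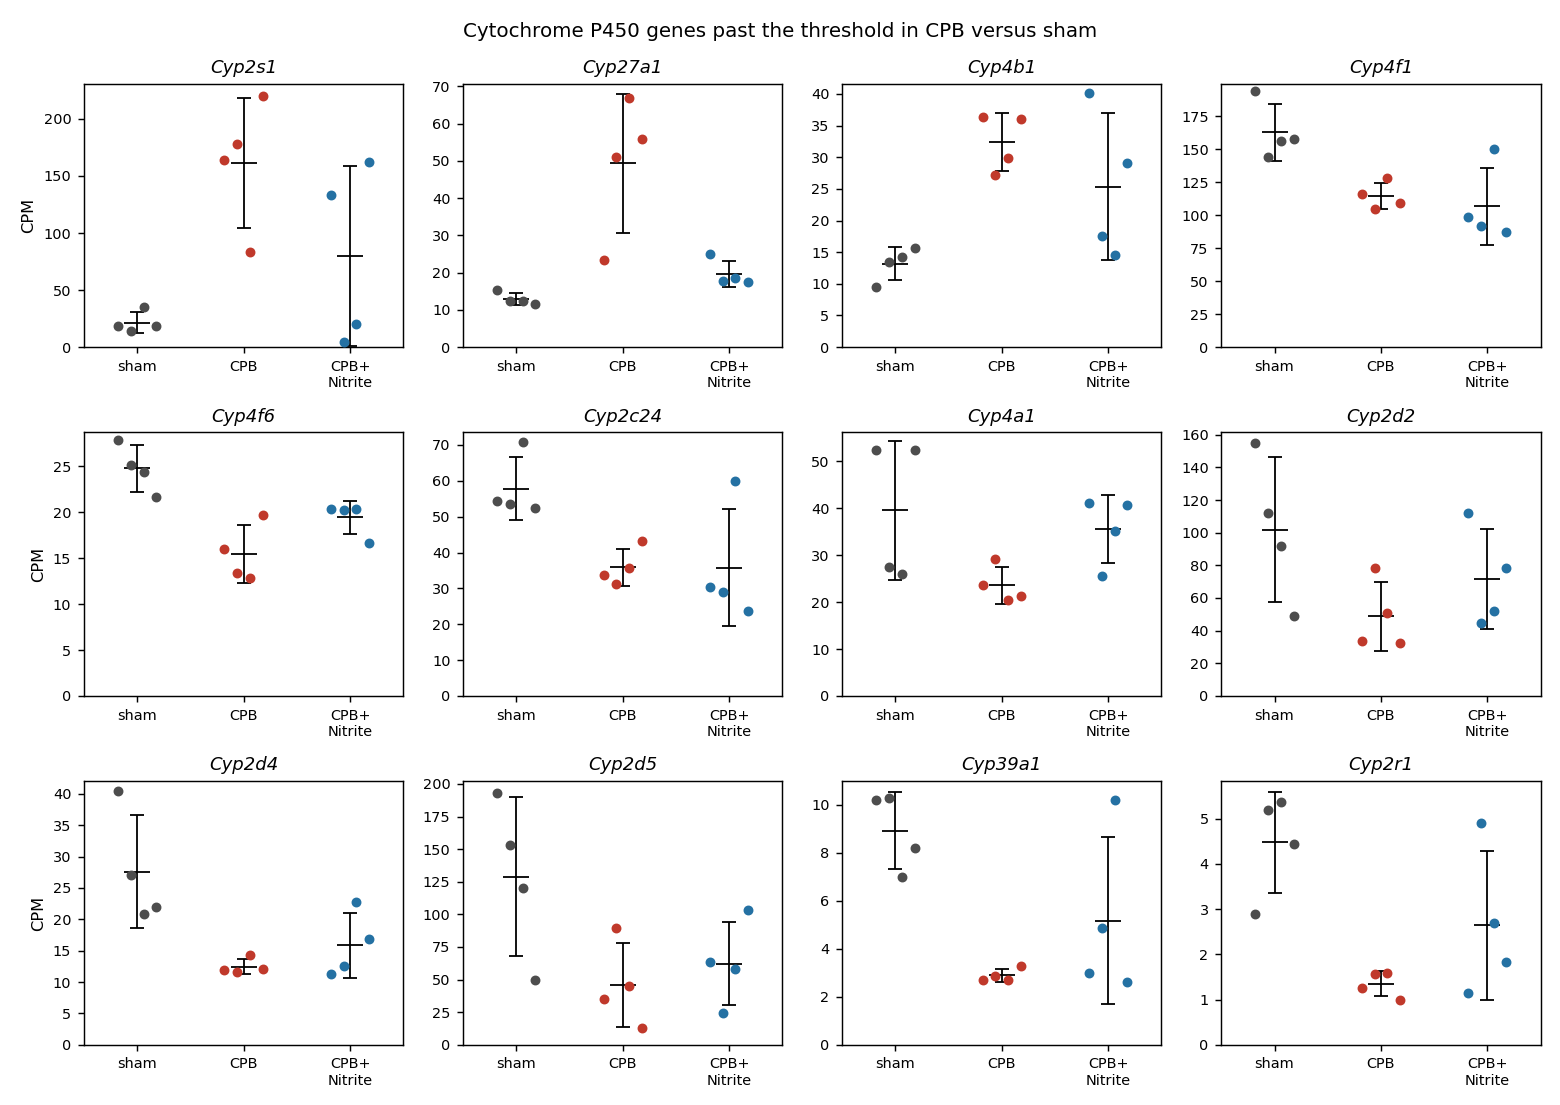
Counts-per-million (CPM, vertical axis, from 0) of the 12 cytochrome P450 genes past the threshold in CPB versus sham, ordered from the largest rise to the largest fall. Points are the 4 libraries of each group, left to right in replicate order, and the horizontal marks with bars are mean ± SD. In CPB all 4 Cyp2s1 values lie at 83.2 CPM or above, and Cyp39a1 values lie within 2.69 to 3.28 CPM.

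Fatty acid omega-hydroxylases made up 15 genes of families Cyp4a, Cyp4b, Cyp4f, Cyp4v and Cyp4x, of which 10 were tested, 1 rose and 3 fell in CPB. Cyp4a2, one of the enzymes that make the vasoconstrictor eicosanoid in rat kidney, took 61.8% of all P450 reads in sham, 65.8% in CPB and 58.4% in CPB+Nitrite, so sums over these genes follow it. Cyp4a2 stood at 5911, 4853, 5285 and 5622 CPM in sham and at 5340, 5017, 6526 and 5030 CPM in CPB, ranges that overlap. Its log2 change was 0.02 with an SE of 0.20 (adjusted p = 0.954), which does not show that the level stayed equal, and with total counts alone it was -0.18. With nitrite it stood at 4673, 3094, 5089 and 3231 CPM, with libraries 1, 2 and 4 below every sham and CPB library. The difference from CPB was -0.45 (SE 0.20, adjusted p = 0.152) and that from sham -0.43 (SE 0.20, adjusted p = 0.177). Reads of Cyp4a2 are not cleanly its own, because a second gene model annotated as a Cyp4a2 copy (LOC120102953) begins at the same base within its span. That copy was given 0 to 0.803 CPM, and how the counting divided reads between them is not stated.

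Cyp4a8, another omega-hydroxylase, followed at 9.45% of P450 reads in sham, with 906, 705, 797 and 915 CPM in sham and 707, 658, 754 and 1118 CPM in CPB (log2 change -0.04, SE 0.38, and -0.23 to 0.05 with single libraries left out). In CPB+Nitrite its libraries fell into unlike levels, with 884 and 1046 CPM in libraries 1 and 3 and 234 and 379 CPM in libraries 2 and 4. Cyp4a3, close in sequence to Cyp4a2, stood at 512, 400, 396 and 478 CPM in sham, at 376, 331, 414 and 381 CPM in CPB and at 450, 677, 469 and 265 CPM in CPB+Nitrite. CPB+Nitrite 2 was thus the highest of all 12 libraries for Cyp4a3 and the lowest for Cyp4a2 and Cyp4a8, and CPB+Nitrite 4 was low for all 3 genes. None of the 3 passed the threshold in any of the 3 comparisons.

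Cyp4a1, which hydroxylates lauric and arachidonic acid and is a classic target of the receptor Ppara, was the Cyp4a gene that fell. It stood at 52.5, 27.6, 26 and 52.4 CPM in sham and at 23.7, 29.2, 20.4 and 21.3 CPM in CPB. The sham libraries formed a high and a low pair, and the low pair overlapped CPB. The log2 change was -0.74 (SE 0.25, adjusted p = 0.0325), and the call was lost in 7 of 22 settings, among them without sham 1 or without sham 4. With nitrite Cyp4a1 stood at 41.1, 25.6, 35.2 and 40.8 CPM, and the difference from CPB was 0.59 (SE 0.25, adjusted p = 0.144).

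Cyp4b1, which oxidises medium-length fatty acids and activates some protoxins, lies 1.57 kb from Cyp4a1 at chromosome 5, 129139038 to 129156348 (mRatBN7.2), on the opposite strand, and moved the other way. It stood at 9.46, 13.5, 14.2 and 15.6 CPM in sham and at 36.4, 27.2, 29.9 and 36.1 CPM in CPB, with no overlap. The rise was 1.30 on the log2 scale (SE 0.29, adjusted p = 0.00458). In CPB+Nitrite libraries 1 and 4 stood at 40.1 and 29.1 CPM, within or above the CPB range, and libraries 2 and 3 at 17.6 and 14.6 CPM, near the sham range. The library was of a strand-specific kind, but how the counting used strand is not stated.

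Of the Cyp4f genes, which hydroxylate leukotrienes and other eicosanoids, 4 of 8 were tested and 2 fell, and these 2 are neighbours 8.25 kb apart on chromosome 7. Cyp4f6 (chromosome 7, 12030301 to 12057782) stood at 27.9, 25.1, 24.4 and 21.7 CPM in sham and at 16, 13.4, 12.8 and 19.7 CPM in CPB, a fall by 0.68 on the log2 scale (SE 0.16, adjusted p = 0.00668). Its CPB+Nitrite values of 20.4, 20.2, 20.4 and 16.7 CPM all lay below every sham library. Libraries 1, 2 and 3 were above every CPB library, and library 4 was below CPB 4. Cyp4f1 stood at 194, 144, 156 and 158 CPM in sham and at 116, 105, 128 and 109 CPM in CPB, again apart, and fell by 0.51 (SE 0.18, adjusted p = 0.0335). This call was lost in 7 of 22 settings, among them without sham 1, 3 or 4 and without CPB 1, 2 or 4. In CPB+Nitrite Cyp4f1 stood at 98.9, 91.8, 150 and 87 CPM, with 3 libraries below all of CPB. Cyp4f5, not called, stood at 1.72 to 2.8 CPM in sham, 0.963 to 3.13 CPM in CPB and 3, 10.4, 5.68 and 3.91 CPM in CPB+Nitrite. Cyp4f39 and Cyp4v3 ranged over 0.423 to 11.8 CPM in all libraries and were not called.

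The epoxygenase subfamilies Cyp2c and Cyp2j had 7 genes, 5 tested, of which 1 fell. Cyp2c23, known as the main arachidonic acid epoxygenase of rat kidney, stood at 982, 848, 953 and 1049 CPM in sham and at 591, 831, 868 and 842 CPM in CPB. CPB 1 was the lowest of the 12 libraries and the ranges overlapped. The log2 change was -0.29 (SE 0.16, adjusted p = 0.153), and the gene was called lower in 1 of 22 settings, with total counts alone. In CPB+Nitrite it stood at 763, 827, 939 and 725 CPM, a difference from CPB of 0.06 (SE 0.16, adjusted p = 0.835) that ranged from -0.08 to 0.11 with single libraries left out. Cyp2c24, a relative of it, stood at 54.5, 53.4, 70.9 and 52.4 CPM in sham and at 33.6, 31.2, 35.6 and 43.1 CPM in CPB, without overlap. It fell by 0.69 (SE 0.25, adjusted p = 0.0417), and the call was lost in 8 of 22 settings, among them without any 1 of the 4 sham libraries and without CPB 1, 2 or 3. With nitrite it stood at 30.4, 29.1, 60 and 23.7 CPM, so 3 libraries were below the CPB range and CPB+Nitrite 3 was in the sham range.

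Cyp2c11, best known as a male-specific liver enzyme of rats, spread widely within every group, at 80.5, 35.9, 62.7 and 66.3 CPM in sham, 80.8, 44, 28.7 and 37.5 CPM in CPB and 46.9, 28.8, 51.4 and 31.9 CPM in CPB+Nitrite. Cyp2j3, an epoxygenase of heart and kidney, was even in sham (42, 38.7, 44.2 and 37.5 CPM) and CPB (44.9, 38.6, 45.2 and 48.2 CPM). In CPB+Nitrite it stood at 31.5, 23.7, 45.6 and 25.1 CPM, with libraries 1, 2 and 4 below all sham and CPB libraries. The difference from CPB was -0.49 (SE 0.19, adjusted p = 0.115).

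**Figure D2:**
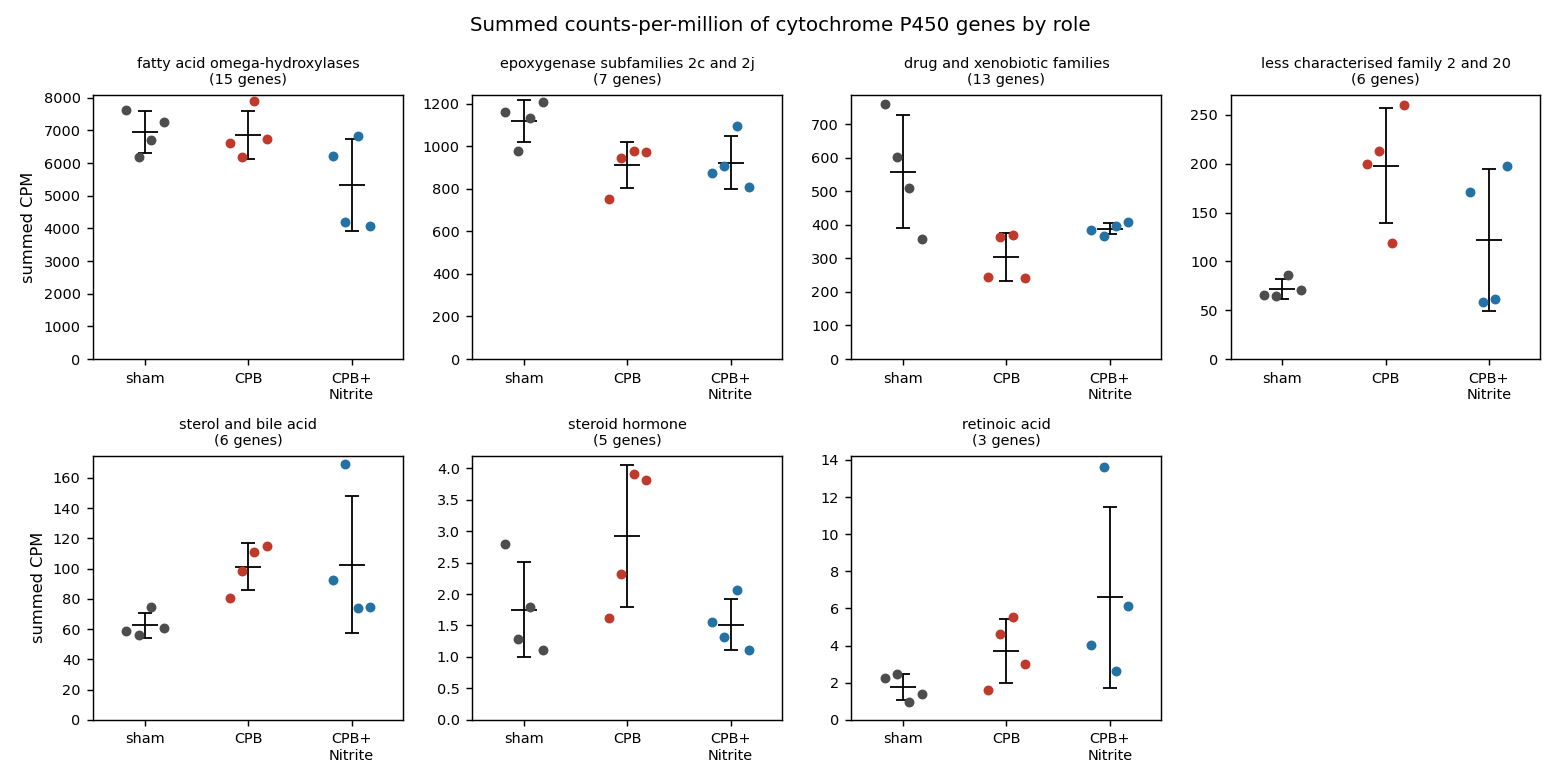
Summed counts-per-million (CPM, vertical axis, from 0) of all P450 genes of each role, including those too low to be tested, with the 4 libraries of each group as points in replicate order and mean ± SD as marks with bars. The sum of the drug and xenobiotic families lies at 358 to 761 CPM in sham and 241 to 369 CPM in CPB, and both this sum and that of the omega-hydroxylases overlap between sham and CPB.

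Drug and xenobiotic families held 13 genes, 6 of them tested. All 6 had a negative log2 change in CPB versus sham (-1.89 to -0.60), 3 fell, and the 3 that fell were in the Cyp2d cluster, which clears many basic drugs. The cluster holds Cyp2d4, Cyp2d5, Cyp2d3 and Cyp2d2 within chromosome 7, 113881618 to 113939209 (mRatBN7.2). Its genes are close in sequence, so reads may have been divided between them, and their sum was 589, 443, 370 and 224 CPM in sham and 177, 278, 219 and 140 CPM in CPB. Sham 4 thus lay within the CPB range and sham 1 stood highest.

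Cyp2d4 (chromosome 7, 113881618 to 113891759), also known from brain, stood at 40.5, 27, 20.8 and 22 CPM in sham and at 11.9, 11.6, 14.3 and 12 CPM in CPB, without overlap and with little spread in CPB. It fell by 1.14 (SE 0.25, adjusted p = 0.00472). Cyp2d5 stood at 193, 153, 120 and 49.7 CPM in sham and at 35, 89.8, 45 and 13.1 CPM in CPB, overlapping ranges, and fell by 1.49 (SE 0.56, adjusted p = 0.0453). Cyp2d2, the rat debrisoquine hydroxylase, stood at 155, 112, 91.9 and 48.8 CPM in sham and at 33.5, 78.1, 50.8 and 32.6 CPM in CPB, also overlapping, and fell by 1.06 (SE 0.39, adjusted p = 0.0424). The calls for Cyp2d5 and Cyp2d2 were lost in 11 and 10 of 22 settings, among them without sham 1, 2 or 3 and without CPB 1, 3 or 4. Cyp2d3 stood at 201, 151, 137 and 103 CPM in sham and at 96.8, 98, 109 and 82.6 CPM in CPB, and was not called (-0.62, SE 0.29, adjusted p = 0.106).

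In CPB+Nitrite the Cyp2d genes differed from one another by library. Cyp2d5 stood at 63.6, 24.5, 58.1 and 103 CPM, Cyp2d2 at 112, 44.4, 51.9 and 78.1 CPM, Cyp2d3 at 92, 37.1, 121 and 90.7 CPM and Cyp2d4 at 11.3, 12.5, 22.7 and 16.8 CPM. CPB+Nitrite 2 was the lowest for 3 of these 4 genes, all but Cyp2d4. Differences from CPB were 0.44 (SE 0.55), 0.56 (SE 0.39), -0.18 (SE 0.29) and 0.34 (SE 0.25) in the same order, none of them called, and that of Cyp2d3 was 0.07 without sham 1 and CPB+Nitrite 2.

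Cyp2e1, which oxidises ethanol and paracetamol, stood at 166, 158, 141 and 134 CPM in sham, at 62.3, 82.4, 150 and 99.8 CPM in CPB and at 105, 248, 142 and 117 CPM in CPB+Nitrite. CPB 3 was in the sham range and CPB+Nitrite 2 above all others, and the change in CPB was -0.60 (SE 0.29, adjusted p = 0.109). Cyp2f4, known from lung, stood at 0.204 to 0.87 CPM in sham and 0.054 to 0.198 CPM in CPB, apart but not called (-1.89, SE 0.90, adjusted p = 0.105).

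Of the 7 untested genes of these families, 5 had 1 to 13 reads in all. Cyp3a9, of the family best known for drug clearance, had 0 reads in each of the 4 sham libraries, 86, 53, 5 and 6 reads in CPB and 8, 3, 2 and 35 reads in CPB+Nitrite. Over the group this was at least 55.8-fold higher in CPB than 3 reads in the sham total would give, and most of the 150 reads lay in CPB 1 and CPB 2. The gene did not pass the low-count filter in the main fit. It was called higher in CPB in 12 of the 22 alternatives (adjusted p = 0.0043 with no low-count filter, edgeR). These were the fit with no filter, DESeq2 and fits with libraries left out. It was not called without CPB 1, without CPB 2 or without CPB+Nitrite 4, the libraries with its highest levels. The count of 12 thus hangs on these libraries and is no separate support. Cyp2b1, an enzyme induced by phenobarbital in liver, had 130 reads in sham 1, 11 in sham 2 and 0 in the other 10 libraries. Sham 1 and sham 2 also had the highest adipocyte sums in sham, 433 and 158 CPM, and the highest urothelial sums, 166 and 29.2 CPM. CPB+Nitrite 1 had an adipocyte sum of 157 CPM and a urothelial sum of 113 CPM, with 0 reads of Cyp2b1. CPB+Nitrite 2, at 182 and 14.5 CPM, also had 0 reads of Cyp2b1. The part of these markers in the Cyp2b1 reads was not tested.

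Cyp2s1, Cyp2r1, Cyp2t1, Cyp2u1 and Cyp20a1 are less characterised as a group, with 6 genes counting the untested Cyp2ab1. Cyp2s1 (chromosome 1, 81310451 to 81325303), an epithelial enzyme known to be inducible through the aryl hydrocarbon receptor, showed the largest rise of all tested P450 genes. It stood at 18.4, 14.2, 34.9 and 18.6 CPM in sham and at 164, 178, 83.2 and 220 CPM in CPB, well apart. The rise was 2.91 (SE 0.82, adjusted p = 0.0141). CPB+Nitrite split into 133 and 162 CPM in libraries 1 and 4, inside the CPB range, and 4.25 and 20.6 CPM in libraries 2 and 3, of which the former was below every sham library. The group mean of 80 ± 79.1 CPM describes no single library, and the difference from CPB was -1.01 (SE 0.77, adjusted p = 0.379).

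Cyp2r1 (chromosome 1, 168751038 to 168797759), the microsomal enzyme that hydroxylates vitamin D at its side chain, stood at 2.9, 5.19, 5.36 and 4.45 CPM in sham and at 1.26, 1.57, 1.59 and 1 CPM in CPB. All CPB libraries lay below all sham libraries, and the fall was 1.72 on the log2 scale (SE 0.41, adjusted p = 0.00684). In CPB+Nitrite it stood at 1.14, 4.91, 2.69 and 1.82 CPM, from below the CPB mean up to the sham range. Cyp2t1, Cyp2u1 and Cyp20a1 had log2 changes of -0.42, -0.60 and -0.33 in CPB and were not called (adjusted p = 0.0957, 0.0771 and 0.124). Cyp20a1, an enzyme of unknown substrate, stood at 25.6, 30.1, 33.4 and 30.2 CPM in sham, 24.9, 22.1, 21.8 and 26 CPM in CPB and 18.9, 32.8, 25 and 22.6 CPM in CPB+Nitrite, overlapping ranges.

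**Figure D3:**
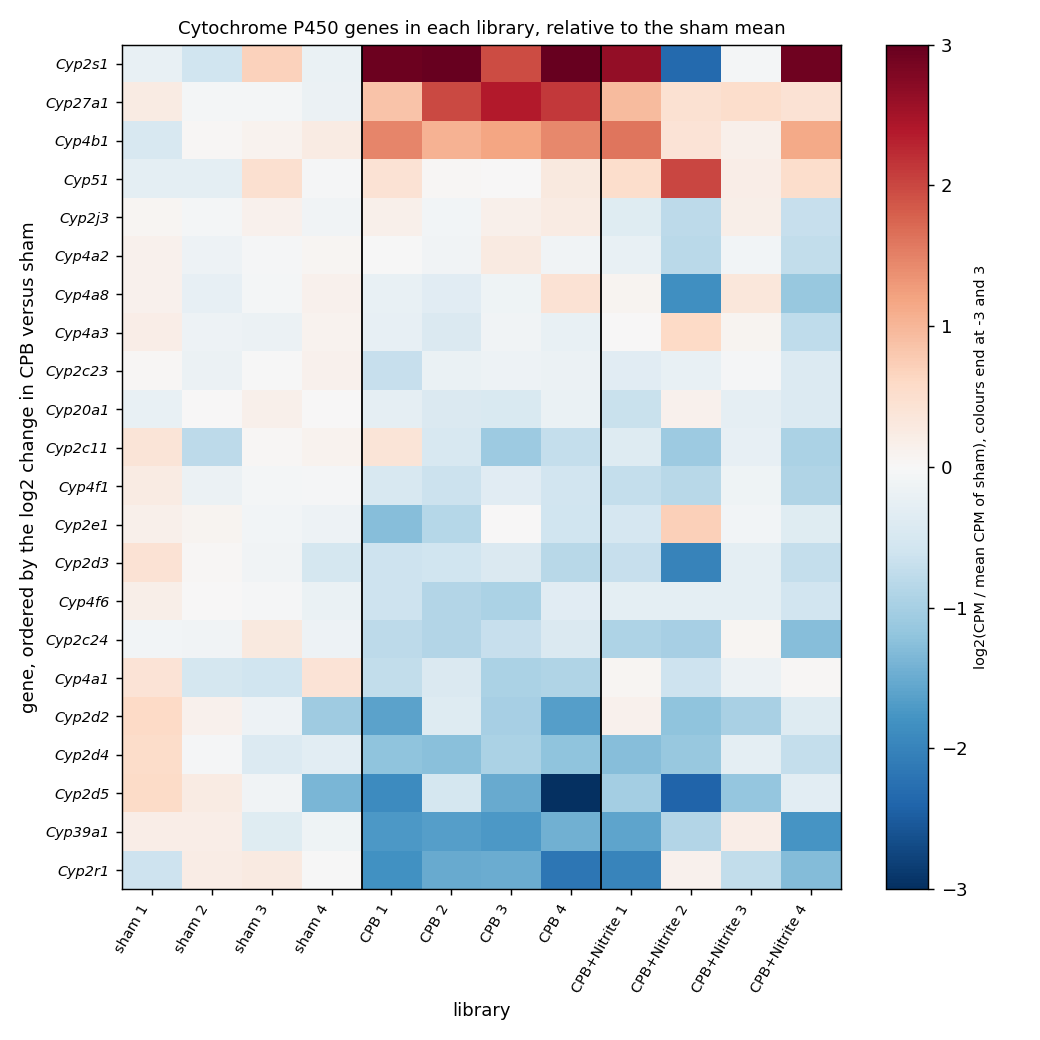
Level of 22 cytochrome P450 genes (rows, from the largest rise to the largest fall in CPB versus sham) in each of the 12 libraries (columns), as log2 of CPM over the mean CPM of sham. Red is above and blue below the sham mean, colours end at -3 and 3, and values run from -3.30 to 3.36. Cyp2s1 is red in all 4 CPB libraries and in CPB+Nitrite 1 and 4, and Cyp51 stands out in CPB+Nitrite 2.

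Among 6 sterol and bile acid genes 5 were tested, 1 rose and 1 fell. Cyp27a1 (chromosome 9, 76264860 to 76294551), the mitochondrial sterol hydroxylase that also acts on vitamin D, had the smallest p of all P450 genes. It stood at 15.3, 12.3, 12.3 and 11.5 CPM in sham and at 23.3, 51.1, 67 and 55.9 CPM in CPB, with CPB 1 the lowest of CPB and still above sham. The rise was 1.94 (SE 0.27, adjusted p = 0.00101). With nitrite all 4 libraries stood close together at 24.9, 17.7, 18.6 and 17.4 CPM, above every sham library and, but for library 1, below every CPB library. The difference from CPB was -1.33 (SE 0.26, adjusted p = 0.0556), just outside the threshold. It passed in 3 of 22 settings, by DESeq2 (adjusted p = 0.000543) and with edgeR without CPB 1 (0.0199) or without CPB+Nitrite 1 (0.0114). Cyp27a1 and Cyp2r1, which both act on vitamin D, thus moved in opposite directions in CPB, the former up and the latter down.

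Cyp39a1 (chromosome 9, 17230455 to 17306775), an oxysterol hydroxylase of bile acid synthesis, stood at 10.2, 10.3, 6.99 and 8.22 CPM in sham and at 2.69, 2.86, 2.72 and 3.28 CPM in CPB. The CPB libraries were nearly alike, and the fall was 1.63 (SE 0.38, adjusted p = 0.00566). In CPB+Nitrite it stood at 3, 4.87, 10.2 and 2.62 CPM, so library 3 reached the sham range and libraries 1 and 4 were near the CPB level. Cyp51, the lanosterol demethylase of cholesterol synthesis, stood at 29.4, 29.3, 49.8 and 34.8 CPM in sham, 48.3, 36.7, 36.2 and 44.1 CPM in CPB and 51.6, 143, 40.8 and 51.5 CPM in CPB+Nitrite, where library 2 was far above the others. Cyp7b1, an oxysterol hydroxylase, stood at 2.42 to 12.4 CPM over all libraries, and Cyp46a1, the brain cholesterol hydroxylase, at 0.147 to 0.918 CPM, neither of them called.

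Steroid hormone enzymes were near the limit of detection. Of Cyp11a1, Cyp11b3, Cyp17a1, Cyp19a1 and Cyp21a1 only the last was tested. Cyp21a1, which makes corticosteroid precursors in the adrenal cortex, stood at 1.79, 0.885, 1.43 and 0.677 CPM in sham, at 1.5, 2.1, 3.68 and 3.48 CPM in CPB and at 0.972, 0.586, 1.52 and 0.533 CPM in CPB+Nitrite. Its change in CPB was 1.16 (SE 0.44, adjusted p = 0.0504), and it was called higher in 12 of 22 settings. The change with nitrite against CPB was -1.57 (SE 0.45, adjusted p = 0.0653), and this passed in 2 settings, by DESeq2 and without CPB+Nitrite 1. The sum of 7 adrenal cortex markers was 36.4 to 75.3 CPM in CPB and 39.8 to 56.3 CPM in sham. Of these the adrenal receptor Mc2r and the factor Nr5a1 were at or under 0.0745 CPM in sham and at or under 0.158 CPM in CPB, while Hsd3b1, a steroid dehydrogenase, rose 8.02-fold (adjusted p = 0.00296). It was the only 1 called of the 4 adrenal markers tested. Of those 4, 2 had a positive and 2 a negative log2 change in CPB, with a median of 0.10. The part of the adrenal markers in the Cyp21a1 values was not tested.

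The retinoic acid hydroxylases Cyp26a1 and Cyp26b1 were tested and not called. Cyp26b1 stood at 1.86, 1.85, 0.613 and 1.21 CPM in sham, 1.62, 3.56, 1.76 and 2.21 CPM in CPB and 3.76, 12.3, 1.96 and 2.89 CPM in CPB+Nitrite, where all libraries were above sham (log2 difference 1.92, SE 0.56, adjusted p = 0.0627). Cyp26a1 ranged from 0.193 to 0.604 CPM in sham and from 0 to 3.8 CPM in CPB.

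The comparison of CPB+Nitrite with CPB asked whether nitrite given with bypass went with other P450 levels than bypass alone. By edgeR's quasi-likelihood test 0 of 34 P450 genes were called, as were 0% of all genes tested, higher or lower. Of the 34 genes 12 had an unadjusted p under 0.05, as did 29.4% of all genes tested, so this count was near the background. The median log2 difference was 0.27 over P450 genes and 0.05 over all genes, and it was 0.07 without sham 1 and CPB+Nitrite 2 and 0.08 without CPB+Nitrite 2 alone. In 0 P450 genes were the groups apart, where 6.44% of all genes tested were apart and higher and 6.27% apart and lower. DESeq2 called Cyp4f5 higher and Cyp27a1 and Cyp21a1 lower, genes named here after their values were seen, where it called 8.85% of all genes higher and 5.84% lower. Without CPB+Nitrite 1, edgeR called Cyp4f5, Cyp2f4 and Cyp2r1 higher and Cyp27a1, Cyp21a1 and Cyp7b1 lower, where 10.6% and 8.67% of all genes were called. Limma's voom with sample weights called 0 P450 genes, and 0.00682% of all genes higher and 0% lower.

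Against sham, CPB+Nitrite had 0 P450 genes called by edgeR, where 3.85% of all genes were called higher and 0.955% lower. An unadjusted p under 0.05 was found for 12 P450 genes and for 27.4% of all genes tested. The smallest adjusted p was 0.0603, for Cyp4f1 (log2 difference -0.61, SE 0.18). Groups were apart for 4 genes that were higher with nitrite (Cyp2j10, Cyp4f5, Cyp26b1 and Cyp27a1) and for 1 that was lower (Cyp4f6), where 5.65% and 5.89% of all genes tested were apart. DESeq2 called 5 P450 genes higher and 2 lower, where it called 9.68% and 4.79% of all genes. The 5 include Cyp3a9, which was not tested in the main fit. Voom called 1 higher and 5 lower, where it called 10.9% and 8.67% of all genes. Both comparisons share the CPB+Nitrite libraries, and both comparisons with sham share the sham libraries, so they are not independent. For the 12 genes called in CPB versus sham, CPB+Nitrite spread more than CPB around its mean in several cases, with an SD of 3.51 CPM against 0.274 CPM for Cyp39a1, 1.64 against 0.276 CPM for Cyp2r1 and 11.6 against 4.59 CPM for Cyp4b1, while for Cyp27a1 it was 3.54 against 18.6 CPM.

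**Figure D4:**
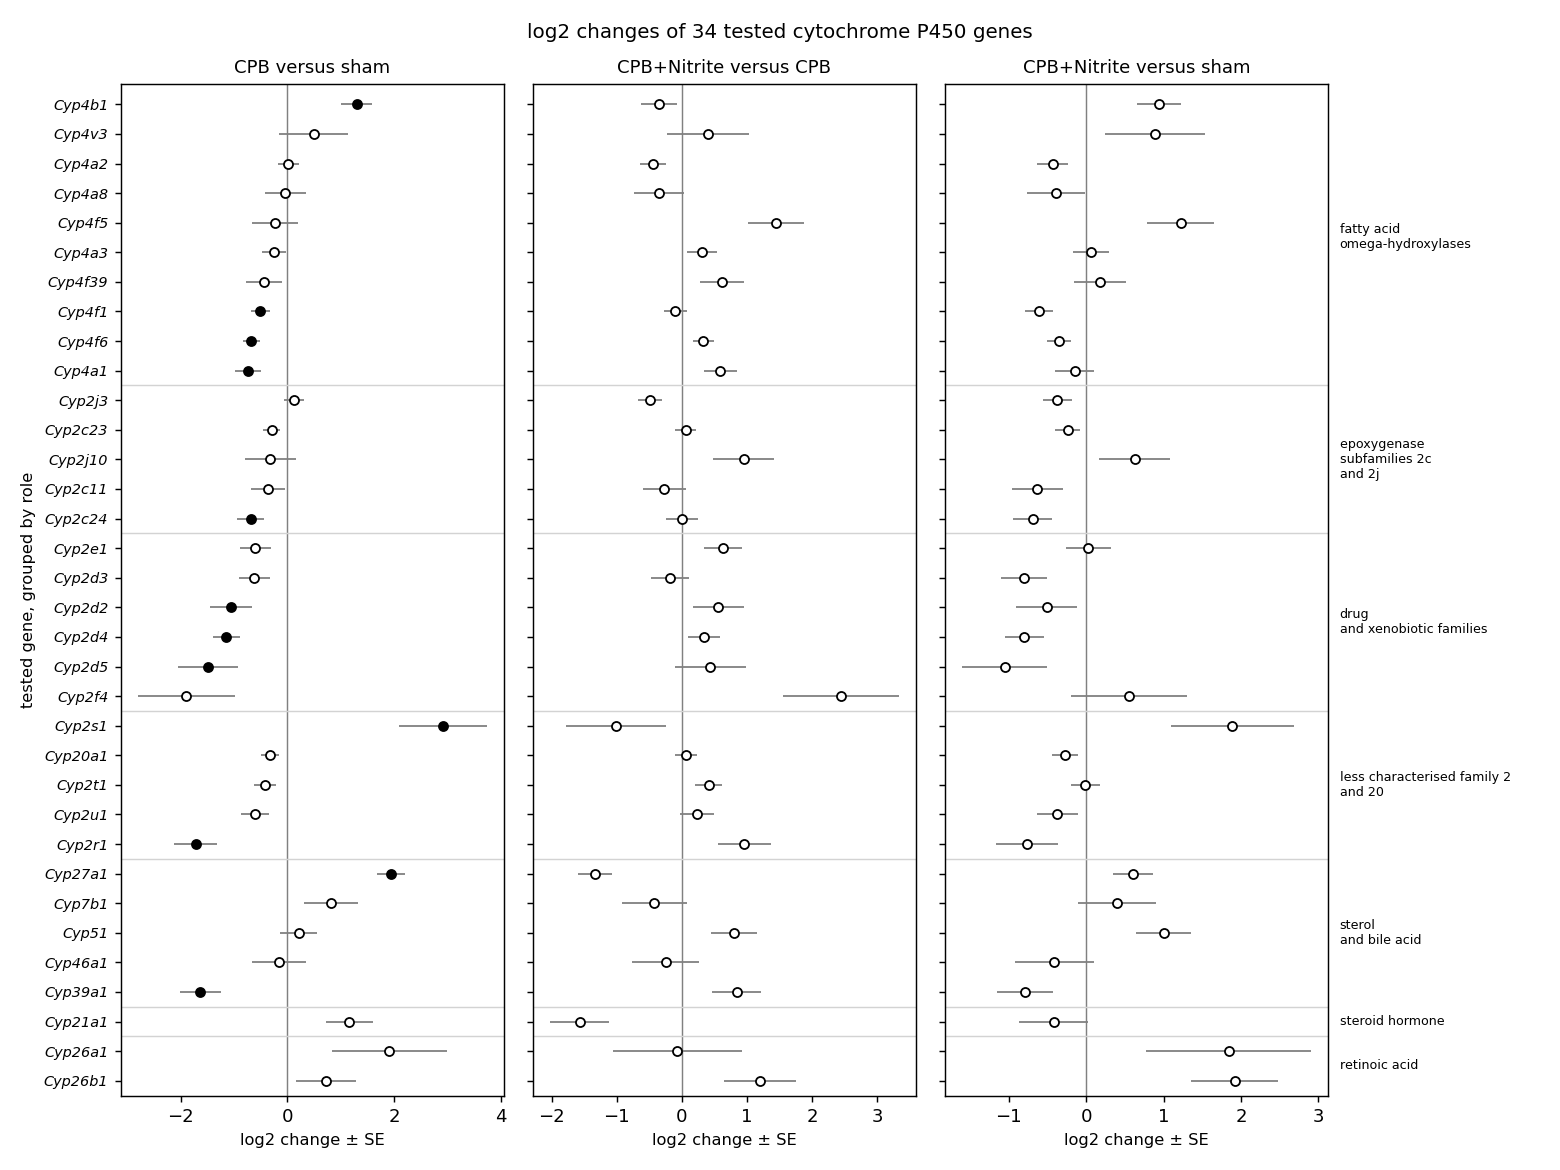
log2 change ± SE (horizontal axes, each with its own scale) of the 34 tested cytochrome P450 genes in CPB versus sham, CPB+Nitrite versus CPB and CPB+Nitrite versus sham, grouped by role. Filled points passed the threshold of 0.05 by edgeR and open points did not. All 12 filled points are in CPB versus sham, 3 to the right of 0 and 9 to the left.

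Electron donors, haem supply and regulators of P450 genes were examined as a list of 49 genes, 43 of them tested. In CPB versus sham 7 rose and 17 fell, where 21.7% and 21.5% of all genes tested were called in these directions. Their median log2 change was -0.52, against -0.05 over all genes. Cyb5b, an outer mitochondrial cytochrome b5, fell from 264 ± 42.8 to 102 ± 12.5 CPM (log2 change -1.38, SE 0.23, adjusted p = 0.00149). Por, the common electron donor, stood at 315 ± 77 CPM in sham, 239 ± 10.9 CPM in CPB and 322 ± 107 CPM in CPB+Nitrite and was not called (adjusted p = 0.18).

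Nuclear receptors of the list went both ways. Ppard (log2 change 0.72, adjusted p = 0.0111), Rxrb (0.46, adjusted p = 0.0264), Nr1h2 (0.60, adjusted p = 0.00508) and Nr5a2 (1.53, adjusted p = 0.0178) were called higher in CPB. Pparg, Hnf4a, Nr1h3, Vdr and Thra were called lower, as were the receptors that follow. Nr1i2, the pregnane X receptor that drives Cyp3a genes in liver, fell by 2.39 (SE 0.40, adjusted p = 0.0015), while reads of Cyp3a9 appeared in CPB. Ppara, which drives Cyp4a genes, fell from 8.83 ± 2.08 to 2.15 ± 0.235 CPM (log2 change -2.03, SE 0.41, adjusted p = 0.00309), and its target Cyp4a1 fell while Cyp4a2, Cyp4a3 and Cyp4a8 were not called. Nr1h4, the bile acid receptor, fell from 41 ± 4.39 to 20.5 ± 2.51 CPM (adjusted p = 0.0031). Its target Nr0b2 fell by 3.98 on the log2 scale, the thyroid hormone receptor gene Thrb by 1.59 and the clock output factor Hlf by 2.44, each past the threshold. Cebpb, a factor of the acute-phase response, rose from 77 ± 38.3 to 302 ± 52.2 CPM (log2 change 1.97, SE 0.34, adjusted p = 0.00157). With nitrite 0 of the 43 were called against CPB, as were 0% of all genes tested. Against sham 2 of the 43 were called higher, Cebpb and Ppard, where 3.85% of all genes were, and 0 lower, where 0.955% were. Both genes were also called higher in CPB versus sham.

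Of 17 markers of the proximal tubule, where many P450 genes are at home, 8 were called lower and 0 higher in CPB. Over all genes tested 21.5% were called lower and 21.7% higher. Among the 17 markers 13 had a negative and 4 a positive log2 change. Their median log2 change was -0.68, against -0.05 over all genes. Their summed level was 13309 to 14634 CPM in sham, 8662 to 10266 CPM in CPB and 7739 to 11513 CPM in CPB+Nitrite. The P450 sum was 7880 to 9673, 7814 to 9479 and 5554 to 8471 CPM in the same order, overlapping between sham and CPB where the marker sum did not. This sum follows Cyp4a2, which took 61.8% of P450 reads in sham and 65.8% in CPB, and it depends on the scaling. As an unscaled share of reads the P450 genes did not overlap, at 0.859 to 1.02% in sham and 0.737 to 0.845% in CPB. The part of tubule content in the P450 changes was not tested. Hepatocyte markers, relevant since liver holds the same enzymes, summed to 25.7 to 41.7 CPM in all libraries, with Alb at or under 4.09 CPM. Of the 5 hepatocyte markers tested, 1 was called higher and 0 lower in CPB versus sham, with log2 changes from -0.48 to 2.90 and a median of -0.02.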

How the data were processed

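Groups and replicate numbers came from the labels. DNase-treated kidney RNA went into directional libraries, per the labels' protocols. The submitters' processing notes name build mRatBN7.2 and, in no stated order, Salmon 1.2.1, R 3.5.1, cutadapt 1.18 and bcl2fastq 2.19. The deposited table held the authors' estimated counts per gene (33.1% of non-zero values not whole), which were rounded. A second deposited table, a signal that equals the authors' counts times 1 factor per library, gave symbols, coordinates and an alternative scaling. The step from transcripts to genes is not given in the sources used here.

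Genes were kept by filterByExpr (minimum count 10; 99.95% of reads) and all 12 libraries fitted together with edgeR 4.0.16 in R 4.3.3 (TMM factors 0.887 to 1.11, glmQLFTest, two-sided, 9 residual degrees of freedom, biological coefficient of variation 0.317). Per-library values are given for every P450 gene past the threshold or with a group mean of at least 20 CPM, and means or log2 changes for the 8 partners with the smallest p in CPB versus sham. Por, Ppard and the lower P450 genes given by library (Cyp4f5, Cyp21a1, Cyp26b1, Cyp3a9, Cyp2b1) were named after their values were seen. So were the other nuclear receptors named that are not among the 8 partners. Alternatives were other scalings and filters, DESeq2 1.42.0, limma 3.58.1 voom, 2-group fits, a replicate block and left-out libraries. Members, lists and tests were chosen with earlier results of these data known.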

Additional observations from a re-analysis of the deposited data

Results flagged for a closer look

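In 6 of 66 groups of 4 libraries (9.09%) the highest or lowest value stood apart from the other 3 by Dixon's test at the 95% level. Chance gives about 1 in 20. Cyp51 was at 143 CPM in CPB+Nitrite 2, where the nearest library had 51.6 CPM, and that library also had the highest endothelial marker sum, 2183 CPM. Cyp2c23, the main renal epoxygenase, was at 591 CPM in CPB 1 against 831 CPM in the nearest library. Cyp27a1 was at 24.9 CPM in CPB+Nitrite 1 against 18.6 CPM. Cyp2c24 was at 70.9 CPM in sham 3 against 54.5 CPM. Cyp2d4 was at 14.3 CPM in CPB 3 against 12 CPM. Cyp4f6 was at 16.7 CPM in CPB+Nitrite 4 against 20.2 CPM.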

How the results depend on the processing

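No call in CPB versus sham changed direction in any of 22 alternatives. In CPB versus sham 5 P450 genes were higher by DESeq2, with only the 2 groups compared, and without sham 1 and CPB+Nitrite 2. Of all genes 3661 of 16791, 4071 of 14153 and 3204 of 14584 were higher, in that order. With single libraries left out 3 to 5 P450 genes were higher, and 2369 to 3697 of all genes. Cyp3a9, not tested in the main fit, was among the 5 by DESeq2 and without sham 1 and CPB+Nitrite 2. It was also counted in some fits with a single library left out. With total counts alone 15 P450 genes were lower and the median was -0.51, with voom 14 were lower, and with single libraries left out 4 to 12. Of 14664 genes tested, 4269 were lower with total counts alone and 4649 with voom, where the main fit had 3148. With single libraries left out 2242 to 3877 of all genes were lower. For CPB+Nitrite versus CPB the median was 0.40 with total counts alone, 0.10 with voom, 0.07 without sham 1 and CPB+Nitrite 2, and 0.08 to 0.31 with single libraries left out, where 0 to 3 genes were higher and 0 to 3 lower. DESeq2 called 1 higher and 2 lower. Of all genes, fits without 1 library called 0 to 1576 higher and 0 to 1289 lower, and DESeq2 called 1347 higher and 888 lower. For CPB+Nitrite versus sham DESeq2 called 5 higher and 2 lower, voom 1 higher and 5 lower, and fits without 1 library 0 to 4 higher and 0 to 6 lower. Cyp3a9 was among the higher genes by DESeq2 and in some of the fits without 1 library. Of all genes, fits without 1 library called 0 to 1620 higher and 0 to 1356 lower. The cause of these differences between settings was not tested.

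With the replicate number as a replicate block, 4 P450 genes were higher and 7 lower in CPB versus sham, and the calls for Cyp2d2 and Cyp2d5 were lost. Of 14664 genes tested 3100 were higher and 3129 lower. In both comparisons with CPB+Nitrite 0 P450 genes were called. Of all genes 0 were called against CPB, and 27 higher and 1 lower against sham. Same-numbered libraries correlated at -0.159 to 0.414 in their deviations from the group means. Libraries with unlike numbers were not compared in this way, so the values cannot show whether the numbers pair the samples.

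Of 66 log2 changes named by gene, 12 changed sign under some alternative, none of them past the threshold with either sign. In CPB versus sham, total counts alone gave -0.07 for Cyp2j3 (otherwise 0.12) and -0.18 for Cyp4a2 (0.02), and a filter at a mean of 2 CPM gave -0.02 for Cyp4a2. Cyp4a8 (-0.04) was at 0.00 with the authors' factors and without sham 1 and CPB+Nitrite 2. In CPB+Nitrite versus CPB, total counts alone gave 0.12 for Cyp2c24 (-0.00) and 0.02 for Cyp4f1 (-0.10). Cyp2c24 was at 0.03 with that filter and 0.01 with only 2 groups. Voom gave -0.03 for Cyp20a1 (0.07) and -0.04 for Cyp2c23 (0.06). Without sham 1 and CPB+Nitrite 2, Cyp2c24 was at 0.09, Cyp20a1 at -0.10 and Cyp2d3 (-0.18) at 0.07. In CPB+Nitrite versus sham, Cyp2e1 (0.03) was at -0.03 with total counts alone, -0.25 with voom, -0.04 with the replicate block and -0.25 without sham 1 and CPB+Nitrite 2. Cyp4a3 (0.06) was at -0.00 with total counts alone, and it and Cyp4a1 (-0.15) were at -0.17 and 0.15 with voom and at -0.11 and 0.14 without these 2 libraries. With single libraries left out the ranges were -0.08 to 0.06 for Cyp4a2 and -0.23 to 0.05 for Cyp4a8 in CPB versus sham. In CPB+Nitrite versus CPB they were -0.37 to 0.15 for Cyp2c24, -0.10 to 0.14 for Cyp20a1, -0.08 to 0.11 for Cyp2c23, -0.45 to 0.10 for Cyp2c11 and -0.40 to 0.07 for Cyp2d3. In CPB+Nitrite versus sham they were -0.30 to 0.16 for Cyp2e1, -0.18 to 0.24 for Cyp4a3 and -0.31 to 0.02 for Cyp4a1. The cause was not tested.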
